A study of Homo sapiens with 28 samples.

Results

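H1944 cells exposed to GSK126 and sorted for high reporter fluorescence (GSK126-high, 3 libraries) were compared with H1944 cells exposed to TGF-β1 and sorted for low reporter fluorescence (TGF-β1-low, 3 libraries). These 6 libraries, of 15 of H1944 and 28 in all, were chosen because both groups carried close levels of the reporter transcript, so that the 2 inducers could be set side by side at a like reporter level. H1944 is a human lung adenocarcinoma line. All its cells here harbored MGT#1-mVenus, a synthetic reporter of mesenchymal state that drives the fluorescent protein mVenus, so naive cells carried it too. GSK126-high cells received GSK126 at 5 µM and TGF-β1-low cells TGF-β1 at 5 ng/ml, each for 11 days. GSK126-low and TGF-β1-high cells are the opposite gates of the same treatments. The compared groups thus differ in gate as well as in inducer, and the comparison of these groups alone cannot tell the 2 apart. Naive H1944 cells were untreated and are taken as unsorted, so each difference from naive cells also holds any effect of sorting. The A549 line, a second lung adenocarcinoma line with the same reporter, had 2 libraries in each of the compared groups. The labels do not say whether the letters A, B and C name separate cultures, so p-values measure the spread between these libraries, which may be technical.

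Epithelial-mesenchymal transition is the change by which epithelial cells lose E-cadherin and keratins and gain N-cadherin, vimentin and matrix proteins. TGF-β1 binds a receptor pair on the cell surface and acts through SMAD proteins on matrix, protease and cytoskeletal genes. GSK126 blocks EZH2, the enzyme of Polycomb repressive complex 2 (PRC2) that places the repressive histone mark H3K27me3. The loss of that mark can release genes that the complex held silent.

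Total counts ran from 2077191 to 4550040 in GSK126-high and from 1660148 to 3273676 in TGF-β1-low libraries, against 2378903 to 13280592 in naive libraries. Levels below are normalised CPM, that is each gene's counts divided by the library's total after scaling by its TMM factor (edgeR's correction for composition). They are set side by side between libraries, not between genes, since they are not divided by gene length. The summed CPM of 376 olfactory receptor genes, which serve smell neurons, was 9.23, 16.9 and 76.1 in GSK126-high libraries A, B and C and 14.1, 63.8 and 20.4 in TGF-β1-low libraries. GSK126-high C and TGF-β1-low B, the shallowest library of each group, thus stood apart by this measure of background. No 2 libraries of a group agreed within sampling noise. Of 22 lung adenocarcinoma and alveolar markers, 11 reached 1 CPM in GSK126-high, 9 in TGF-β1-low and 11 in naive cells. The lineage factor NKX2-1 and the surfactant genes SFTPA1, SFTPA2, SFTPB and SFTPC were below 1 CPM in all 3 groups, while the adenocarcinoma markers KRT7, MUC1 and LPCAT1 were present. The surfactant gene SFTPD reached 1 CPM in GSK126-high and naive cells but not in TGF-β1-low cells. Since reads carry no molecular identifiers, the intervals and floors given for counts hold counting error alone. In RNA from a bulk of cells, fewer cells that express a gene and less RNA per cell cannot be told apart.

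The reporter transcript chose the pair and is given as a description. mVenus had 821, 755 and 831 normalised CPM in GSK126-high libraries, 888, 803 and 809 in TGF-β1-low libraries, and 330, 403 and 352 in naive libraries. The treated groups overlapped and lay above all naive libraries. By plain CPM the means were 859 ± 49.1 in GSK126-high and 791 ± 34.4 in TGF-β1-low cells (SD, n = 3 each), so the order of the 2 groups depends on the scaling. The opposite gates were far from them, with 227 ± 34.3 normalised CPM in GSK126-low and 2512 ± 85.1 in TGF-β1-high cells (SD, n = 3 each).

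At this like reporter level, the 2 groups differed across much of the transcriptome. Of 13621 genes tested, 7144 passed the test (52.4%; edgeR quasi-likelihood test, Benjamini-Hochberg adjusted p under 0.05). Of these, 3582 were higher (26.3% of the tested genes) and 3562 lower (26.2%) in GSK126-high than in TGF-β1-low cells. Changes of at least 2-fold were called for 3025 genes (22.2%), 1610 higher (11.8%) and 1415 lower (10.4%). The median log2 fold change over all tested genes was 0.01, on the scale of GSK126-high over TGF-β1-low that all fold changes below use. Without GSK126-high library C the count was 6898, and without TGF-β1-low library B 6698. In normalised CPM, the libraries of the 2 groups did not overlap for 7687 of the tested genes (56.4%).

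Epithelial identity genes were higher in GSK126-high cells. CDH1 (chr16:68737225-68835548, GRCh38), which encodes the adhesion protein E-cadherin, had 61.7, 77.2 and 75.1 normalised CPM in GSK126-high libraries, 19.3, 19.4 and 16.1 in TGF-β1-low libraries, and 269 to 284 in naive libraries. The compared groups did not overlap, and both were below naive cells; the log2 fold change between them was 1.96 ± 0.15 (SE, adjusted p = 2.39e-13). EPCAM, an epithelial adhesion protein, had 76.0, 106 and 62.3 normalised CPM in GSK126-high, 13.1, 17.5 and 10.3 in TGF-β1-low and 78.2 to 82.8 in naive libraries. GSK126-high cells thus spanned the naive level, and TGF-β1-low cells lay below it (log2 fold change 2.63 ± 0.21, adjusted p = 1.97e-13).

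The keratins of simple epithelia differed in the same direction. KRT18 had 1604, 1669 and 2317 normalised CPM in GSK126-high, 496, 403 and 495 in TGF-β1-low and 1650 to 1897 in naive libraries, a log2 fold change of 2.0 ± 0.11 (adjusted p = 1.97e-16). Its partner KRT8 had a log2 fold change of 1.62 ± 0.10 (adjusted p = 2.94e-15). KRT19 (chr17:41523617-41528308) had 22.8, 24.9 and 23.9 normalised CPM in GSK126-high libraries, 0 counts in all TGF-β1-low libraries, and 17.9 to 19.1 normalised CPM in naive libraries. With 240 counts against 0, the level in GSK126-high cells was at least 55.9-fold higher, taking a floor of 3 counts over the group. In GSK126-low cells KRT19 averaged 0.701 ± 0.563 normalised CPM (SD, n = 3), below every GSK126-high library.

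The epithelial regulators were scarce. ESRP1, which directs epithelial splicing, had 9.21, 9.36 and 11.0 normalised CPM in GSK126-high, 3.27, 5.00 and 2.06 in TGF-β1-low and 9.78 to 12.3 in naive libraries. The log2 fold change was 1.57 ± 0.38 (adjusted p = 3.97e-04), and the fit of all 28 libraries lost the call (adjusted p = 0.0649). OVOL2, a repressor of mesenchymal genes, rested on 35 counts against 4 and GRHL2, an activator of epithelial genes, on 58 against 12. Their groups overlapped, with log2 fold changes of 2.55 ± 0.96 (adjusted p = 0.00809) and 1.74 ± 0.71 (adjusted p = 0.0282). Only TGF-β1-low library B reached the GSK126-high range, at 1.87 normalised CPM for OVOL2 and 5.62 for GRHL2. That library stood apart in olfactory receptor CPM, and the part of background in the overlap was not tested. Leaving out TGF-β1-low library A ended both calls (adjusted p = 0.0886 for OVOL2 and 0.186 for GRHL2). The call of GRHL2 was also lost without GSK126-high C (adjusted p = 0.0824), without TGF-β1-low C (0.169), in DESeq2 (0.179) and in the fit of all 28 libraries (0.173). Between the low gates of both inducers GRHL2 had a log2 fold change of -0.65.

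Mesenchymal identity genes were lower in GSK126-high than in TGF-β1-low cells, although several were above naive cells in both. FN1 (chr2:215360440-215436172), which encodes the matrix protein fibronectin, had 520, 504 and 510 normalised CPM in GSK126-high libraries, 7244, 7937 and 6781 in TGF-β1-low libraries, and 6.36 to 8.5 in naive libraries. The 3 groups were far apart, with a log2 fold change of -3.84 ± 0.08 between the treated groups (adjusted p = 4.43e-27). CDH2, the adhesion protein N-cadherin, had 60.7, 44.6 and 37.1 normalised CPM in GSK126-high, 551, 537 and 508 in TGF-β1-low and 4.24 to 6.27 in naive libraries (log2 fold change -3.45 ± 0.12, adjusted p = 1.49e-21). VIM, the filament protein vimentin, had 362, 257 and 327 normalised CPM in GSK126-high, 1566, 1363 and 1554 in TGF-β1-low and 143 to 178 in naive libraries (log2 fold change -2.24 ± 0.11, adjusted p = 8.87e-18). None of these 3 genes overlapped between any of the 3 groups, while 56.4% of all tested genes did not overlap between the 2 treated groups. CD44, a receptor for hyaluronan, had the lowest level in GSK126-high cells. It had 256 to 320 normalised CPM in GSK126-high, 512 to 537 in TGF-β1-low and 526 to 540 in naive libraries (log2 fold change -0.83 ± 0.09, adjusted p = 7.42e-10).

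The transcription factors that drive the transition did not all differ in one direction. ZEB1 (chr10:31318495-31529814), a repressor of epithelial genes, had 17.0, 25.8 and 23.9 normalised CPM in GSK126-high, 131, 150 and 139 in TGF-β1-low and 24.7 to 35.2 in naive libraries. It was lower in GSK126-high than in TGF-β1-low cells (log2 fold change -2.69 ± 0.15, adjusted p = 1.08e-16), and its relative ZEB2 was lower as well (-1.98 ± 0.28, adjusted p = 2.15e-07). SNAI2, another repressor of CDH1, had 14, 15.8 and 10.2 normalised CPM in GSK126-high, 31.4, 20 and 23.9 in TGF-β1-low and 0 to 0.383 in naive libraries. Both treated groups were above naive cells, and the difference between them was -0.92 ± 0.23 (adjusted p = 9.01e-04). TWIST1 (chr7:19020991-19117672), a helix-loop-helix factor of mesoderm, ran the other way, with 7.12, 3.88 and 3.98 normalised CPM in GSK126-high, 0.327, 0.625 and 0 in TGF-β1-low and 0 to 0.425 in naive libraries. It rested on 55 counts against 2, a ratio of 19.2 with a 95% counting interval from 5.07 to 163 (adjusted p = 1.01e-04). In TGF-β1-high libraries TWIST1 was at 0, and in GSK126-low libraries it averaged 8.54 ± 1.92 normalised CPM (SD, n = 3).

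**Figure D1:**
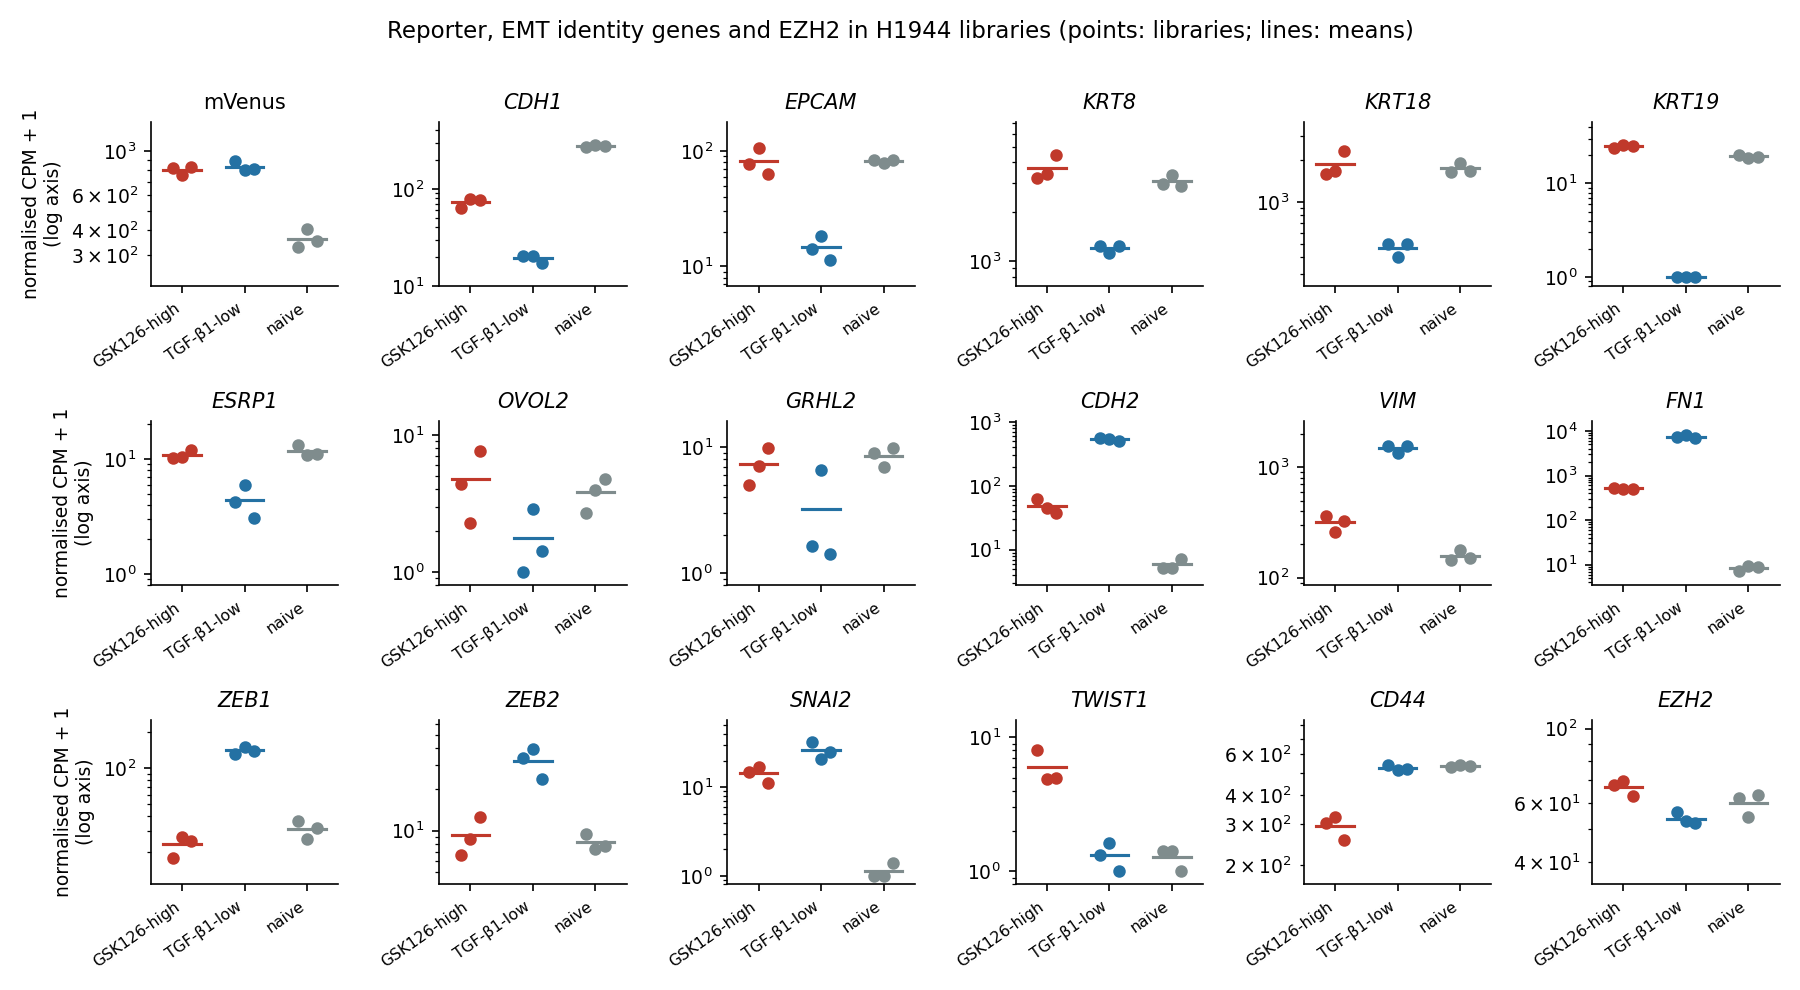
Level of the reporter, the 16 EMT identity genes and EZH2 in each H1944 library (points; normalised CPM plus 1, log axis) with the group mean as a line, for GSK126-high, TGF-β1-low and naive cells (3 libraries each). The mVenus points of the 2 treated groups overlap, while FN1 lies at 504 to 520 in GSK126-high and 6781 to 7937 in TGF-β1-low cells.

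Of the 16 EMT identity genes, 9 were higher and 7 lower in GSK126-high than in TGF-β1-low cells, so all 16 passed the test, against 52.4% of all tested genes. Those higher were the 8 epithelial genes and TWIST1. The 16 were chosen with earlier results of these data known, so their share is in part set by the choice.

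Promoter windows are shown for 3 genes of the comparison, FN1 as a matrix gene described above, CCN2 as a target shared by SMAD and YAP signalling, and ELF3 as an epithelial transcription factor. Each holds the 250 bases before the start of the RefSeq transcript (GRCh38.p14), 5′ to 3′ on the strand of the gene. Capitals mark matches on either strand to 4 searched motifs: CAGGTG (the E-box bound by ZEB and SNAI factors), CAGACA (SMAD), GGAATG (TEAD) and TGANTCA (AP-1).
FN1, chr2:215436069-215436318, minus strand: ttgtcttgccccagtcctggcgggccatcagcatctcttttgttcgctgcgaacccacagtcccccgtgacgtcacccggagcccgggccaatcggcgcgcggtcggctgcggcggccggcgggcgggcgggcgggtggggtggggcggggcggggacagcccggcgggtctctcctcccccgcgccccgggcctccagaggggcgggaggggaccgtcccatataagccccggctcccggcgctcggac
CCN2, chr6:131951373-131951622, minus strand: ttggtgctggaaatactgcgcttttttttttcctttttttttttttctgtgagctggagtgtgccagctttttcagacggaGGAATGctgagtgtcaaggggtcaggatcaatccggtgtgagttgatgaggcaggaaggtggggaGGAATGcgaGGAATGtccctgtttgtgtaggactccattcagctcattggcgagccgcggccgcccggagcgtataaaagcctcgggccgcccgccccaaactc
ELF3, chr1:202010337-202010586, plus strand: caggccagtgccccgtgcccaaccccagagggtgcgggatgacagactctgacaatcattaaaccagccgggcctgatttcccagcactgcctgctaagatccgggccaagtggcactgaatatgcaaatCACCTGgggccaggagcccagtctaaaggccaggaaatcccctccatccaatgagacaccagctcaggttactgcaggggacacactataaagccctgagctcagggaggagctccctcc
The CCN2 window holds GGAATG 3 times, beginning 169, 104 and 95 bases before the start, with no overlap among them. Of 35116 promoter windows of the same length, 11.9% hold this motif and 0.0826% hold it at least 3 times. The ELF3 window holds 1 E-box on the opposite strand, beginning 120 bases before the start, and 17.5% of windows hold an E-box. The FN1 window holds none of the 4 sets of letters; CAGACA occurs in 13.6% and TGANTCA in 6.57% of all windows. These matches describe the letters and say nothing of binding.

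Of the 12 highest and 12 lowest coding genes, several had few or no reads in one of the groups. MUC5B (chr11:1223066-1262172), which encodes a gel-forming airway mucin, had 300, 358 and 381 normalised CPM in GSK126-high libraries, 0.327, 0 and 0 in TGF-β1-low libraries, and 1928 to 2305 in naive libraries. With 3404 counts against 1, the ratio was 2379 with a 95% counting interval from 427 to 93995 (adjusted p = 2.07e-25). GSK126-high cells thus held MUC5B at a level below naive cells (log2 fold change over naive -2.60 ± 0.10, adjusted p = 1.23e-19), and TGF-β1-low cells had 1 read. HPD, an enzyme of tyrosine breakdown, had 688, 662 and 883 normalised CPM in GSK126-high, 5.88, 5.62 and 4.95 in TGF-β1-low and 2132 to 2313 in naive libraries (log2 fold change 7.07 ± 0.22, adjusted p = 1.72e-27).

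FGA, a chain of the clotting protein fibrinogen, had 539, 624 and 573 normalised CPM in GSK126-high, 6.86, 3.12 and 3.30 in TGF-β1-low and 407 to 432 in naive libraries (log2 fold change 6.91 ± 0.24, adjusted p = 4.56e-27). REG1A (chr2:79120362-79123419), a secreted protein of pancreas and gut, was not near the naive level: it had 80.4, 69.1 and 57.0 normalised CPM in GSK126-high, 0.653, 0 and 0 in TGF-β1-low and 0.230 to 1.27 in naive libraries. Its counts were 727 against 2, a ratio of 254 with a counting interval from 70.1 to 2102 (adjusted p = 1.34e-17). Beside KRT19, another 6 of the 12 highest had 0 counts in all TGF-β1-low libraries. The level in GSK126-high cells was at least 49.4-fold higher for the protease KLK10, at least 47.3-fold for TRIM15, at least 20.3-fold for RARRES1, at least 14.9-fold for the ion pump regulator FXYD3, at least 12.1-fold for the calcium-binding protein S100A8 and at least 11.9-fold for the cytochrome CYP2S1. KLK10 and RARRES1 also differed between the gates of GSK126. KLK10 averaged 21.6 ± 2.94 normalised CPM in GSK126-high and 3.8 ± 0.702 in GSK126-low cells (SD, n = 3 each). RARRES1 averaged 8.1 ± 2.12 in GSK126-high and 0.345 ± 0.416 in GSK126-low cells. TSPAN8, a membrane tetraspanin, had 223 counts against 1, a ratio of 156 with a counting interval from 27.7 to 6183.

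The 12 lowest coding genes encode proteins of several kinds. MMP2 (chr16:55389700-55506691), a gelatinase that cuts matrix, had 9.0, 9.04 and 10.2 normalised CPM in GSK126-high libraries, 1308, 1363 and 1210 in TGF-β1-low libraries, and 0 to 0.850 in naive libraries. Both treated groups were above naive cells without overlap, and the log2 fold change between them was -7.12 ± 0.16 (adjusted p = 4.91e-29). PDGFB, a growth factor for mesenchymal cells, had 2.09, 0.969 and 1.77 normalised CPM in GSK126-high, 154, 136 and 141 in TGF-β1-low and 0 to 0.230 in naive libraries (log2 fold change -6.40 ± 0.36, adjusted p = 2.03e-22). IGFBP5, which binds insulin-like growth factors, had a log2 fold change of -6.20 ± 0.37 (adjusted p = 6.81e-21), and ANGPTL4, an inhibitor of lipoprotein lipase, one of -6.10 ± 0.30 (adjusted p = 1.44e-22).

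KANK4, an adapter of the cell cortex, had 0.209, 0 and 1.33 normalised CPM in GSK126-high, 89.5, 78.1 and 83.3 in TGF-β1-low and 0 to 0.918 in naive libraries, so that GSK126-high cells stayed near the naive level (log2 fold change -7.61 ± 0.78, adjusted p = 3.10e-18). TNFAIP6, a hyaluronan-binding protein, had 1 count against 156 and FOXS1, a forkhead factor, 1 against 83. HHIP, a decoy for hedgehog ligands, had 3 counts against 221. CGB8, CLEC18B, the oxysterol receptor GPR183 and PDCD1LG2, a ligand of the immune checkpoint receptor PD-1, had 0 counts in all GSK126-high libraries and were at least 17.6-fold, 16.2-fold, 16.7-fold and 14.3-fold lower. CGB8 and CLEC18B have near-identical copies, and the split of reads among them is uncertain.

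**Figure D2:**
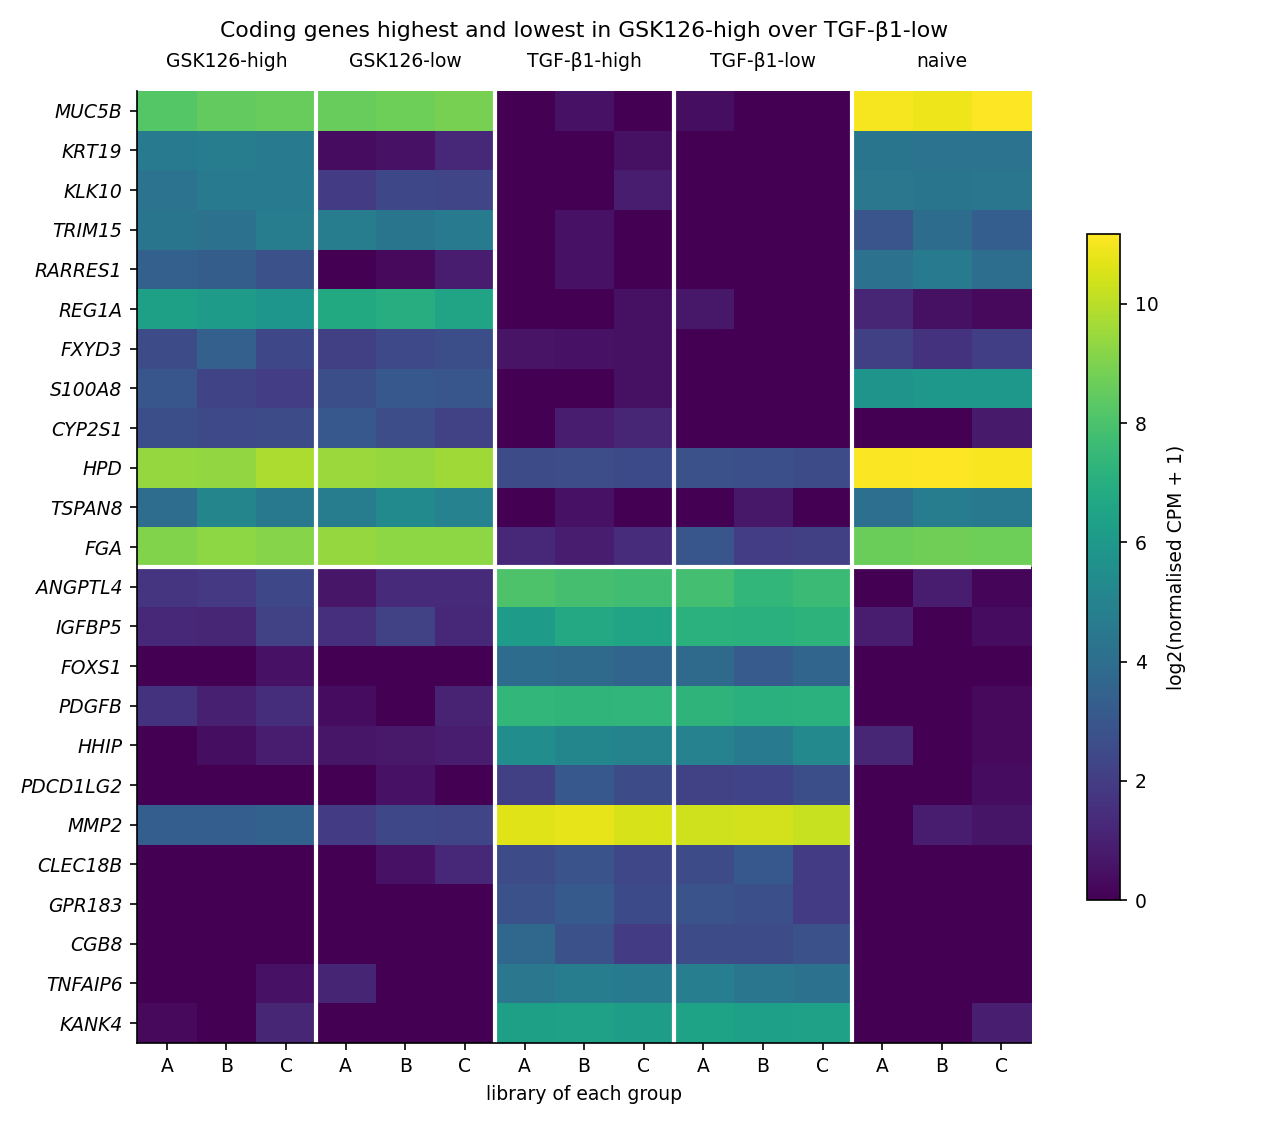
Level of the 12 highest and 12 lowest protein-coding genes of the comparison in all 15 H1944 libraries (colour, log2 of normalised CPM plus 1), ordered by log2 fold change. KRT19 and RARRES1 are dark in GSK126-low as well as in TGF-β1-low libraries, whereas MUC5B, HPD and FGA are bright in both gates of GSK126.

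Gene lists were described by how many tested members passed the test in each direction, to be read against 26.3% of all genes higher and 26.2% lower, and by their median log2 fold change, against 0.01 for all genes. Setting members at 0 counts in one group at the bound of the floor changed none of the list medians given below. Genes high in 1 group alone can pass the filter through that group, so counts and medians describe the tested members only. Of 34 epithelial genes tested, 26 were higher and 6 lower in GSK126-high cells, with a median of 1.85. ELF3 had 197, 170 and 199 normalised CPM in GSK126-high, 23.8, 21.2 and 21.0 in TGF-β1-low and 124 to 130 in naive libraries (log2 fold change 3.08 ± 0.15, adjusted p = 9.40e-19). TJP3, a tight junction scaffold, had 626 counts against 8 (5.77 ± 0.55, adjusted p = 5.10e-17), and MAL2, an apical sorting protein, had 132, 173 and 114 normalised CPM in GSK126-high against 7.84, 7.5 and 4.95 in TGF-β1-low libraries. The 6 that ran the other way, named after their values were seen, were junction proteins: DSC2, CLDN1, DSG2, JUP, TJP1 and DSP, with log2 fold changes of -2.98, -1.89, -1.50, -0.97, -0.40 and -0.27. DSC2, a desmosomal cadherin, had 43.3, 33.3 and 28.7 normalised CPM in GSK126-high against 296, 277 and 283 in TGF-β1-low libraries, with 20 to 25.6 in naive libraries. The epithelial list therefore did not move as one.

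Of 14 mucin and secretory genes, 13 were higher and 0 lower, with a median of 3.15. The membrane mucin MUC16 had 391, 459 and 367 normalised CPM in GSK126-high against 51.6, 73.7 and 55.7 in TGF-β1-low libraries (log2 fold change 2.78 ± 0.13, adjusted p = 2.68e-18). AGR2, which folds mucins, had 551 counts against 7 (5.74 ± 0.61, adjusted p = 4.66e-16). MUC1 had 92.9, 95.3 and 83.5 normalised CPM in GSK126-high, 18.0, 17.5 and 16.9 in TGF-β1-low and 36.0 to 42.1 in naive libraries, so that GSK126-high cells were above and TGF-β1-low cells below naive cells. Of 19 gut and liver genes, 16 were higher and 1 lower, with a median of 3.14. The other fibrinogen chains FGG and FGB had log2 fold changes of 6.44 ± 0.22 (adjusted p = 6.56e-26) and 5.62 ± 0.19 (adjusted p = 1.01e-23). All 8 lung adenocarcinoma and alveolar markers that could be tested were higher (median 1.75), of 22 in the list. The others had too few reads, and they did not all lie in that direction. AQP4 and CLDN18, which were not tested, reached 1 CPM in TGF-β1-low but not in GSK126-high cells. In the whole list, SFTPD, SLC34A2, LAMP3 and HOPX reached it in GSK126-high but not in TGF-β1-low cells. CEACAM6, an adhesion protein of lung tumours, had 103, 101 and 74.2 normalised CPM in GSK126-high, 21.9, 15.6 and 18.1 in TGF-β1-low and 5.53 to 6.43 in naive libraries. KRT7 was higher too (1.34 ± 0.11, adjusted p = 4.31e-12), but between the low gates of both inducers it had -0.07.

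Genes of mesenchymal cells and their matrix lay mainly in the other direction. Of 26 mesenchymal genes, 3 were higher and 22 lower in GSK126-high cells, with a median of -3.06. COL1A1 (chr17:50183289-50201632), the main chain of type I collagen, had 60.3, 54.3 and 74.6 normalised CPM in GSK126-high, 3499, 3893 and 3482 in TGF-β1-low and 6.96 to 12.7 in naive libraries (log2 fold change -5.86 ± 0.11, adjusted p = 1.37e-27). CALD1, an actin-binding protein, had 220, 224 and 182 normalised CPM in GSK126-high, 1998, 2065 and 1979 in TGF-β1-low and 95.3 to 128 in naive libraries (-3.27 ± 0.10, adjusted p = 7.38e-23). The 3 that were higher, named after their values were seen, were the receptor kinase AXL (0.98), DPYSL3 (1.30) and S100A4 (1.95). Of 21 collagens, 3 were higher and 14 lower, with a median of -1.69. COL4A1 and COL4A2, which encode collagen chains of the basement membrane, had log2 fold changes of -2.91 ± 0.08 (adjusted p = 1.14e-23) and -2.44 ± 0.09 (adjusted p = 5.78e-21), and COL22A1 one of -4.27 ± 0.20 (adjusted p = 3.04e-20).

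Of 32 matrix glycoproteins, 10 were higher and 17 lower, with a median of -1.37. THBS1, an activator of latent TGF-β, had 243, 190 and 188 normalised CPM in GSK126-high, 1921, 2034 and 2022 in TGF-β1-low and 84.4 to 91.5 in naive libraries (log2 fold change -3.26 ± 0.10, adjusted p = 1.20e-22). Of 25 matrix proteases and inhibitors, 4 were higher and 19 lower, with a median of -1.71. ADAM19, a membrane protease, had 13.8, 14.9 and 13.3 normalised CPM in GSK126-high, 847, 804 and 795 in TGF-β1-low and 0.424 to 1.15 in naive libraries (-5.86 ± 0.13, adjusted p = 6.44e-28). The highest of the 4 that ran the other way, named after its value was seen, was the epithelial protease MMP7 at 4.31 (adjusted p = 8.40e-10). Of 17 integrins, the receptors for matrix, 3 were higher and 13 lower, with a median of -1.35. ITGA11, a collagen receptor subunit, had 41 counts against 1469 (-5.67 ± 0.27, adjusted p = 6.05e-22). ITGB1, the shared β subunit, had 653, 688 and 488 normalised CPM in GSK126-high, 3793, 3589 and 3582 in TGF-β1-low and 756 to 926 in naive libraries, so that GSK126-high cells were below naive cells. Of 18 smooth muscle contractile genes, 2 were higher and 15 lower (median -2.22), among them TAGLN, an actin-crosslinking protein, with 170, 121 and 188 normalised CPM in GSK126-high, 1323, 1218 and 1273 in TGF-β1-low and 1.27 to 3.98 in naive libraries.

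Fibroblast markers moved with these groups. Of 14, 9 could be tested and all 9 were lower in GSK126-high cells (median -3.49). Their summed CPM was 70.7 to 115 in GSK126-high and 3752 to 4188 in TGF-β1-low libraries, with 13.8 to 18.2 in naive libraries, and most of it was COL1A1. Beside it, FAP averaged 3.88 normalised CPM in GSK126-high and 101 in TGF-β1-low cells, and LUM 4.75 in GSK126-high and 56.5 in TGF-β1-low cells. COL6A3 averaged 2.23 in GSK126-high and 40.9 in TGF-β1-low cells. DCN, named after its values were seen, averaged 3.53 in GSK126-high and 36.2 in TGF-β1-low cells. The COL6A3 mean of GSK126-high rested on library C, with 0.628, 0.323 and 5.74 normalised CPM in A, B and C and 0.425 to 1.76 in naive libraries. The 5 with too few reads to be tested were PDGFRA, THY1, DPT, TCF21 and COL1A2, which averaged 0.827, 0.589, 0.589, 0.432 and 1.39 normalised CPM in GSK126-high and 1.98, 0.208, 0.346, 0.417 and 2.57 in TGF-β1-low cells. A share of fibroblasts among the cells as part of the matrix difference was not tested.

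**Figure D3:**
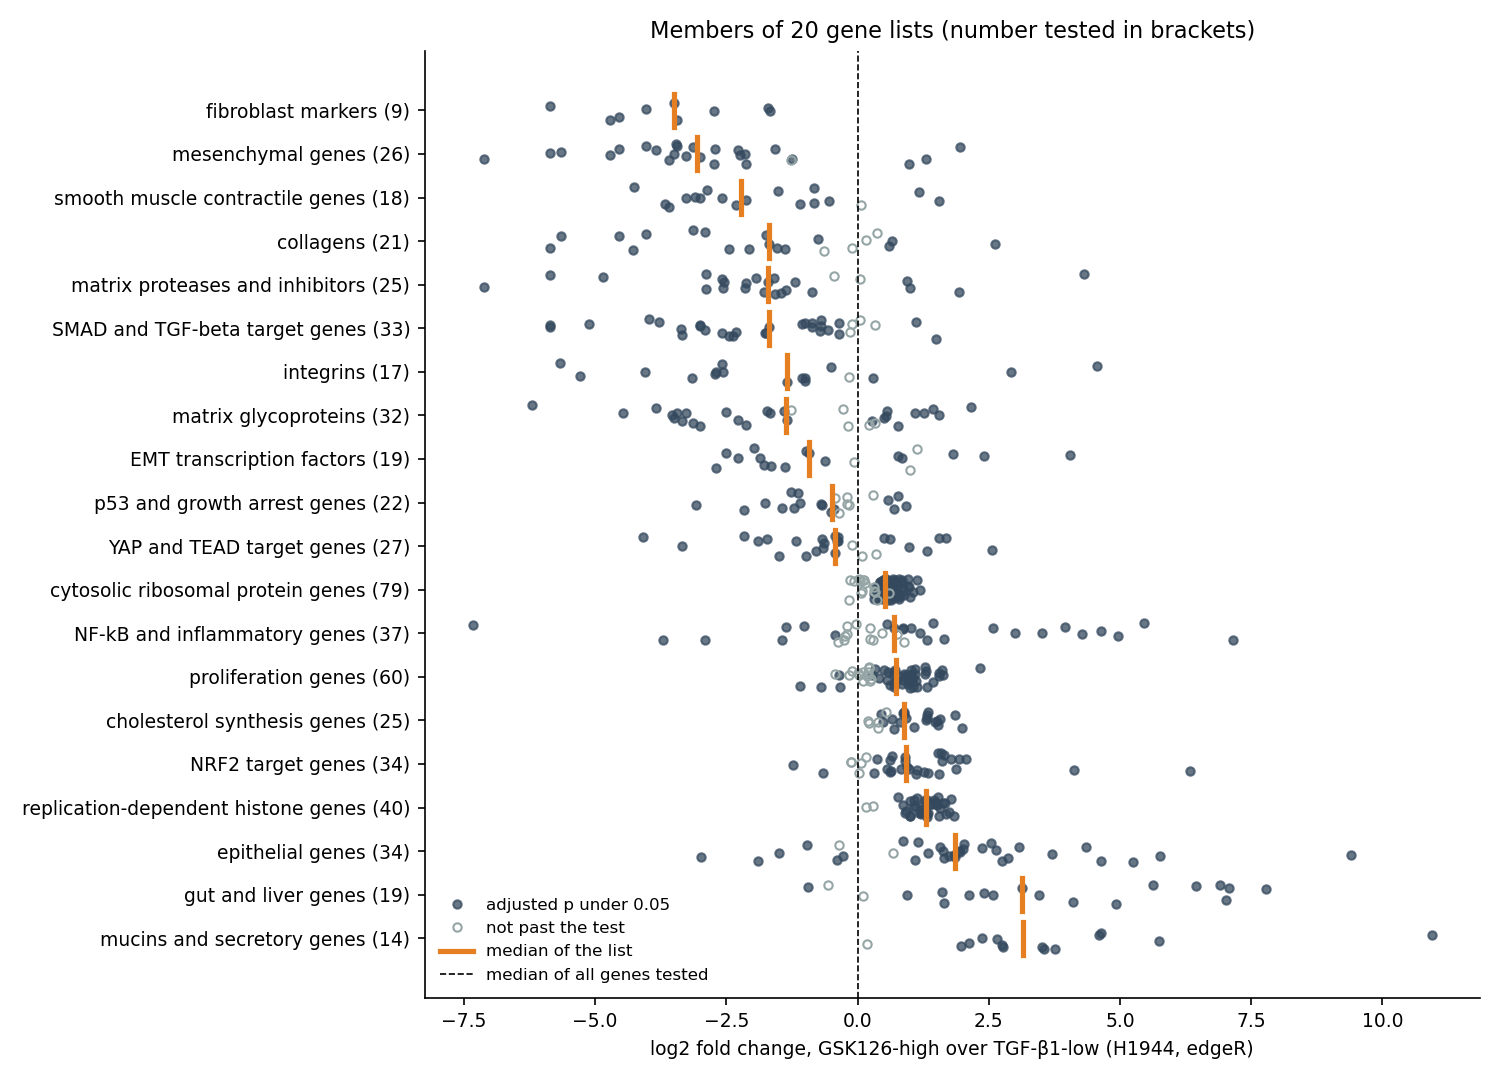
Log2 fold change of GSK126-high over TGF-β1-low for each tested member of 20 gene lists (points; filled where the adjusted p was under 0.05), with the median of the list in orange and that of all genes as a dashed line. Mesenchymal genes centre at -3.06 and epithelial genes at 1.85, and members of both lists lie on either side of 0.

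Genes of the TGF-β pathway were described by role. Of 25 ligands, receptors and SMADs, 6 were higher and 12 lower in GSK126-high cells (median -0.34). TGFB1, the ligand itself, had 60.7, 49.1 and 76.0 normalised CPM in GSK126-high, 104, 101 and 106 in TGF-β1-low and 3.40 to 5.66 in naive libraries. Its RNA was thus above naive cells under both inducers, and lower in GSK126-high than in TGF-β1-low cells (log2 fold change -0.76 ± 0.13, adjusted p = 9.98e-06). INHBA, which forms activin A, had 28 counts against 561 (-4.82 ± 0.32, adjusted p = 2.34e-17). TGFBR1, the kinase of the receptor pair, had 173, 196 and 106 normalised CPM in GSK126-high, 939, 890 and 900 in TGF-β1-low and 50.9 to 61.4 in naive libraries (-2.51 ± 0.12, adjusted p = 1.24e-17), and BMPR2 had -2.71 ± 0.10 (adjusted p = 5.84e-21). TGFBR2, which binds the ligand first, differed less (-0.38 ± 0.11, adjusted p = 0.0046), and this call was lost with a filter at 1 CPM (adjusted p = 0.0534), with no filter (0.324) and in the fit of all 28 libraries (0.196). The co-receptor TGFBR3 was higher in GSK126-high cells, with 37.5, 36.8 and 34.0 normalised CPM against 7.51, 5.00 and 11.1 in TGF-β1-low and 49.3 to 59.0 in naive libraries (2.15 ± 0.22, adjusted p = 1.16e-10).

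Of 33 SMAD and TGF-β target genes, 2 were higher and 27 lower, with a median of -1.69. The 2 that were higher, named after their values were seen, were ID1 (log2 fold change 1.11) and ID2 (1.49), inhibitors of helix-loop-helix factors. CCN2, whose promoter is shown above, had 102, 99.5 and 82.2 normalised CPM in GSK126-high, 1027, 968 and 910 in TGF-β1-low and 11.6 to 13.2 in naive libraries (log2 fold change -3.35 ± 0.10, adjusted p = 3.23e-23). Of 27 YAP and TEAD target genes, 7 were higher and 17 lower (median -0.42). CCN1 had -1.73 ± 0.10 (adjusted p = 4.97e-16) and NT5E, an enzyme that makes adenosine, -4.08 ± 0.16 (adjusted p = 6.24e-21). IGFBP3 ran the other way, with 638, 663 and 627 normalised CPM in GSK126-high, 207, 232 and 222 in TGF-β1-low and 1116 to 1319 in naive libraries (1.55 ± 0.09, adjusted p = 1.03e-15).

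Of 19 transcription factors of the transition, 5 were higher and 11 lower (median -0.92). SOX4 had 156, 127 and 126 normalised CPM in GSK126-high, 482, 470 and 470 in TGF-β1-low and 13.1 to 18.7 in naive libraries (log2 fold change -1.79 ± 0.10, adjusted p = 2.28e-16). ETS1 had -2.50 ± 0.19 (adjusted p = 1.43e-13) and TCF4 -1.64 ± 0.15 (adjusted p = 3.48e-11). The 5 that were higher, named after their values were seen, were TWIST1, TBX3, PRRX1, KLF8 and SOX9, with log2 fold changes of 4.04, 2.41, 1.82, 0.84 and 0.78.

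EZH2, the enzyme that GSK126 inhibits, had 67.0, 68.8 and 61.8 normalised CPM in GSK126-high, 55.2, 51.9 and 51.1 in TGF-β1-low and 53.6 to 62.4 in naive libraries. Its log2 fold change was 0.32 ± 0.12 (adjusted p = 0.0213), and the call was lost without GSK126-high A (adjusted p = 0.0616), TGF-β1-low B (0.0629) or TGF-β1-low C (0.0884) and in the fit of all 28 libraries (0.11). Of 14 PRC2 subunits and H3K27 demethylases, 3 were higher and 5 lower (median 0.00). JARID2, a subunit that guides the complex, had 79.3, 62.6 and 65.8 normalised CPM in GSK126-high, 238, 202 and 217 in TGF-β1-low and 39.1 to 44.5 in naive libraries (-1.65 ± 0.11, adjusted p = 2.37e-14). KDM6B, which removes the mark, had -1.68 ± 0.15 (adjusted p = 1.03e-11).

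Genes often held by PRC2 split between the directions. Of 35 tested developmental regulators, 15 were higher and 12 lower (median 0.43). TBX3, a T-box repressor, had 26, 24.2 and 21.6 normalised CPM in GSK126-high, 4.25, 4.37 and 4.95 in TGF-β1-low and 1.22 to 2.55 in naive libraries (log2 fold change 2.41 ± 0.28, adjusted p = 1.26e-09). FOXD1, a forkhead factor, had 12.1, 13.9 and 16.8 normalised CPM in GSK126-high, 169, 166 and 165 in TGF-β1-low and 8.72 to 12.8 in naive libraries (-3.59 ± 0.15, adjusted p = 2.21e-20). Of 25 HOX genes, 5 were higher and 7 lower (median 0.09), near the shares of all genes. Of 12 cancer-testis genes tested, of 33 in the list, 9 were higher and 0 lower (median 1.21). Members with few reads can pass the filter through the groups where they are high, as SSX1 did through those of GSK126. The split of the tested members is therefore in part set by the filter. MAGEA10 had 37.9, 39.7 and 31.4 normalised CPM in GSK126-high, 13.4, 16.2 and 19.4 in TGF-β1-low and 4.67 to 5.53 in naive libraries (1.18 ± 0.18, adjusted p = 1.33e-06). SSX1 had 41 counts in GSK126-high, 0 in TGF-β1-low and 1 in naive libraries, and was at least 9.55-fold higher in GSK126-high cells. Genes of these families have close copies, so the split of reads among them is uncertain.

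Immune genes differed in both directions. Of 37 NF-κB and inflammatory genes, 18 were higher and 7 lower (median 0.70). C3, the central complement protein, had 1154, 1124 and 1190 normalised CPM in GSK126-high, 41.8, 36.9 and 31.3 in TGF-β1-low and 1736 to 1916 in naive libraries (log2 fold change 4.97 ± 0.11, adjusted p = 4.43e-27). PTGS2, which makes prostaglandins, had 320, 284 and 128 normalised CPM in GSK126-high, 23.5, 20 and 20.2 in TGF-β1-low and 62.8 to 71.0 in naive libraries. GSK126-high C was the lowest of its group, yet above every naive library (3.52 ± 0.29, adjusted p = 5.59e-13). Of 37 interferon-stimulated genes, 16 were higher and 9 lower (median 0.43). MX1, an antiviral GTPase, had 48.8, 49.1 and 53 normalised CPM in GSK126-high, 4.25, 8.75 and 5.36 in TGF-β1-low and 9.33 to 19.6 in naive libraries (3.13 ± 0.28, adjusted p = 7.61e-13), whereas GBP1, another interferon-induced GTPase, had -1.93 ± 0.16 (adjusted p = 3.62e-12). Of 20 MHC class I presentation genes, 10 were higher and 2 lower (median 0.37). HLA-C had 553, 530 and 601 normalised CPM in GSK126-high, 312, 291 and 310 in TGF-β1-low and 289 to 362 in naive libraries (0.88 ± 0.09, adjusted p = 1.42e-09); reads can be shared among HLA genes. Both tested MHC class II genes, HLA-DMA and HLA-DMB, were higher in GSK126-high than in TGF-β1-low cells and below naive cells in both.

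Growth and metabolic genes were mostly higher in GSK126-high cells. Of 60 proliferation genes, 43 were higher and 4 lower (median 0.73). MCM2, part of the replicative helicase, had 154, 132 and 179 normalised CPM in GSK126-high, 57.2, 51.2 and 41.2 in TGF-β1-low and 126 to 135 in naive libraries (log2 fold change 1.63 ± 0.13, adjusted p = 4.98e-13). The 4 that were lower, named after their values were seen, were CCND1 (-1.09), CENPE (-0.70), ANLN (-0.35) and CENPF (-0.34). Of 40 replication-dependent histone genes, 38 were higher and 0 lower (median 1.31); their sequences are similar and reads may be shared. Of 22 p53 and growth arrest genes, 4 were higher and 12 lower (median -0.48), among them TP53I3 with 22.2, 23.3 and 23.9 normalised CPM in GSK126-high against 199, 189 and 190 in TGF-β1-low libraries. Of 79 cytosolic ribosomal protein genes, 64 were higher and 0 lower (median 0.52).

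Of 34 NRF2 target genes, which serve defence against oxidants, 27 were higher and 2 lower (median 0.93). GPX2, a glutathione peroxidase, had 447, 473 and 615 normalised CPM in GSK126-high, 8.82, 4.37 and 4.54 in TGF-β1-low and 394 to 436 in naive libraries (log2 fold change 6.33 ± 0.24, adjusted p = 7.34e-25). ALDH3A1, an aldehyde dehydrogenase, had 237, 216 and 261 normalised CPM in GSK126-high, 13.1, 14.4 and 13.6 in TGF-β1-low and 49.6 to 55.7 in naive libraries (4.13 ± 0.15, adjusted p = 8.32e-23). The 2 that were lower, named after their values were seen, were SLC7A11 (-1.23) and HMOX1 (-0.65). Of 25 cholesterol synthesis genes, 20 were higher and 0 lower (median 0.89). Of 24 unfolded protein response genes, 3 were higher and 11 lower (median -0.30). Of 29 hypoxia and glycolysis genes, 15 were higher and 7 lower (median 0.45): CA12 had 2.28 ± 0.09 (adjusted p = 1.64e-20) and VEGFA -1.48 ± 0.10 (adjusted p = 3.39e-14).

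Each treated group was also set against naive cells; both comparisons share the naive libraries, so their values are given side by side. Of the 13621 genes tested, GSK126-high cells differed from naive cells in 5327 (39.1%), with 2929 higher and 2398 lower. TGF-β1-low cells differed in 7800 (57.3%), with 4023 higher and 3777 lower. List counts below are to be read against these. Mesenchymal genes were higher than in naive cells under both, 21 of 26 in GSK126-high (median 2.43) and 24 of 26 in TGF-β1-low cells (median 4.59). SMAD and TGF-β targets were likewise higher, 27 of 33 in GSK126-high (median 1.26) and 29 of 33 in TGF-β1-low cells (median 3.24). Of the 34 epithelial genes, 16 were higher and 2 lower than naive in GSK126-high cells (median 0.34), while 6 were higher and 25 lower in TGF-β1-low cells (median -1.46). Mucin and secretory genes had medians of 0.06 in GSK126-high and -3.68 in TGF-β1-low cells, and gut and liver genes 0.11 in GSK126-high and -3.17 in TGF-β1-low cells. Cytosolic ribosomal protein genes were lower than naive in both, 77 of 79 in GSK126-high (median -0.64) and 79 of 79 in TGF-β1-low cells (median -1.19). The naive cells were unsorted, and the part of sorting in these differences was not tested.

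**Figure D4:**
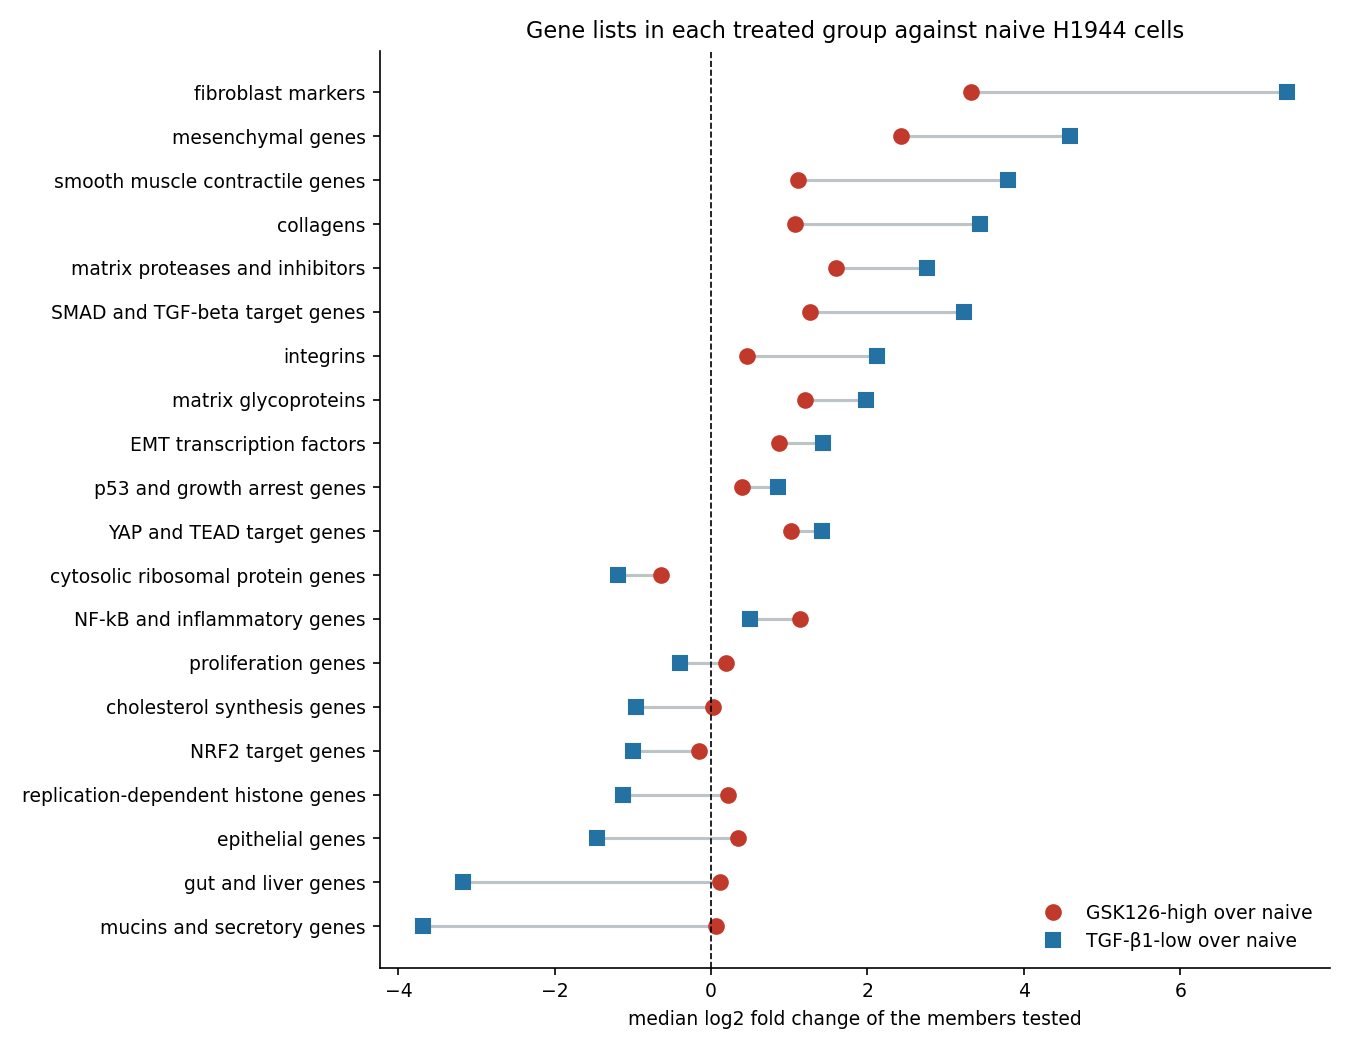
Median log2 fold change over naive cells of the tested members of 20 gene lists, in GSK126-high (circles) and TGF-β1-low cells (squares). Mesenchymal, matrix and SMAD target lists lie above 0 in both groups, whereas mucin and gut and liver lists lie near 0 in GSK126-high and at -3.68 and -3.17 in TGF-β1-low cells.

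Genes at a like level in the 2 compared groups were taken as those whose 95% interval of the fold change lay within 1.5-fold either way, 2989 of the tested genes (21.9%). Above naive cells, the highest protein-coding genes of these were PRUNE2, IL32, NAV2, VDR, CAV1 and SLCO3A1. VDR, the vitamin D receptor, had 45.0, 29.1 and 39.8 normalised CPM in GSK126-high, 42.8, 37.5 and 47.0 in TGF-β1-low and 5.10 to 8.48 in naive libraries. The treated groups overlapped, at 2.71 ± 0.21 (adjusted p = 4.49e-13) over naive in GSK126-high and 2.87 ± 0.21 (adjusted p = 3.61e-14) in TGF-β1-low cells. CAV1, the coat protein of caveolae, had 65.3, 54.9 and 52.6 normalised CPM in GSK126-high, 55.2, 45.0 and 63.5 in TGF-β1-low and 5.51 to 13.6 in naive libraries. IL32, an inflammatory cytokine, had 30.0 to 53 normalised CPM in GSK126-high, 43.7 to 54.6 in TGF-β1-low and 4.51 to 5.94 in naive libraries.

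Below naive cells, the lowest were PLEKHH1, TBC1D31, NEB, OSGIN2, CD55 and MAP2K6. CD55, which shields cells from complement, had 296, 300 and 184 normalised CPM in GSK126-high, 305, 294 and 291 in TGF-β1-low and 872 to 936 in naive libraries. MAP2K6, a kinase upstream of p38, had 64.5, 71.0 and 58.7 normalised CPM in GSK126-high, 64.0, 60.6 and 68.1 in TGF-β1-low and 195 to 228 in naive libraries. Its log2 fold change between the treated groups was 0.01 ± 0.12. Between the low gates of both inducers PRUNE2 (-0.58), NAV2 (-0.67), IL32 (-0.40), TBC1D31 (0.39) and NEB (0.54) passed the test, so their like level held for the gates compared here. Between the high gates MAP2K6 passed it (0.36, adjusted p = 0.0127), and without GSK126-high library C OSGIN2 did (0.29, adjusted p = 0.0167).

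In A549 the same 2 groups had 2 libraries each and were less alike in reporter level, with mVenus at 1327 and 2152 normalised CPM in GSK126-high and 1092 and 950 in TGF-β1-low libraries. Total counts were 2619503 and 3507028 in GSK126-high against 7679168 and 6410323 in TGF-β1-low libraries. Olfactory receptor genes summed to 48.5 and 8.84 CPM in GSK126-high and 103 and 125 in TGF-β1-low libraries. The part of these gaps in the A549 results was not tested. Of 19842 genes tested, 1873 passed (9.44%), 1138 higher (5.74%) and 735 lower (3.7%) in GSK126-high cells, with a median of -0.21 over all genes. Without GSK126-high library B the count was 524, without A 943 and without TGF-β1-low library C 1047. Of 30 mesenchymal genes, 3 were higher and 10 lower (median -1.37), and of 35 SMAD and TGF-β targets 3 were higher and 19 lower (median -1.27). Proliferation genes were higher for 37 of 60 and lower for 0 (median 1.13), and NRF2 targets higher for 22 of 34 and lower for 0 (median 1.25). Of 32 epithelial genes, 8 were higher and 3 lower (median 0.33). TWIST1 had 11.1 and 15.3 normalised CPM in GSK126-high against 1.38 and 1.34 in TGF-β1-low libraries of A549 (log2 fold change 3.25 ± 0.53, adjusted p = 6.87e-04). MMP2 had -2.29 (adjusted p = 7.76e-04) and MAL2 5.36 (adjusted p = 2.85e-08). The difference between the lines itself passed the test for 1569 of 17918 genes (8.76%).

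**Figure D5:**
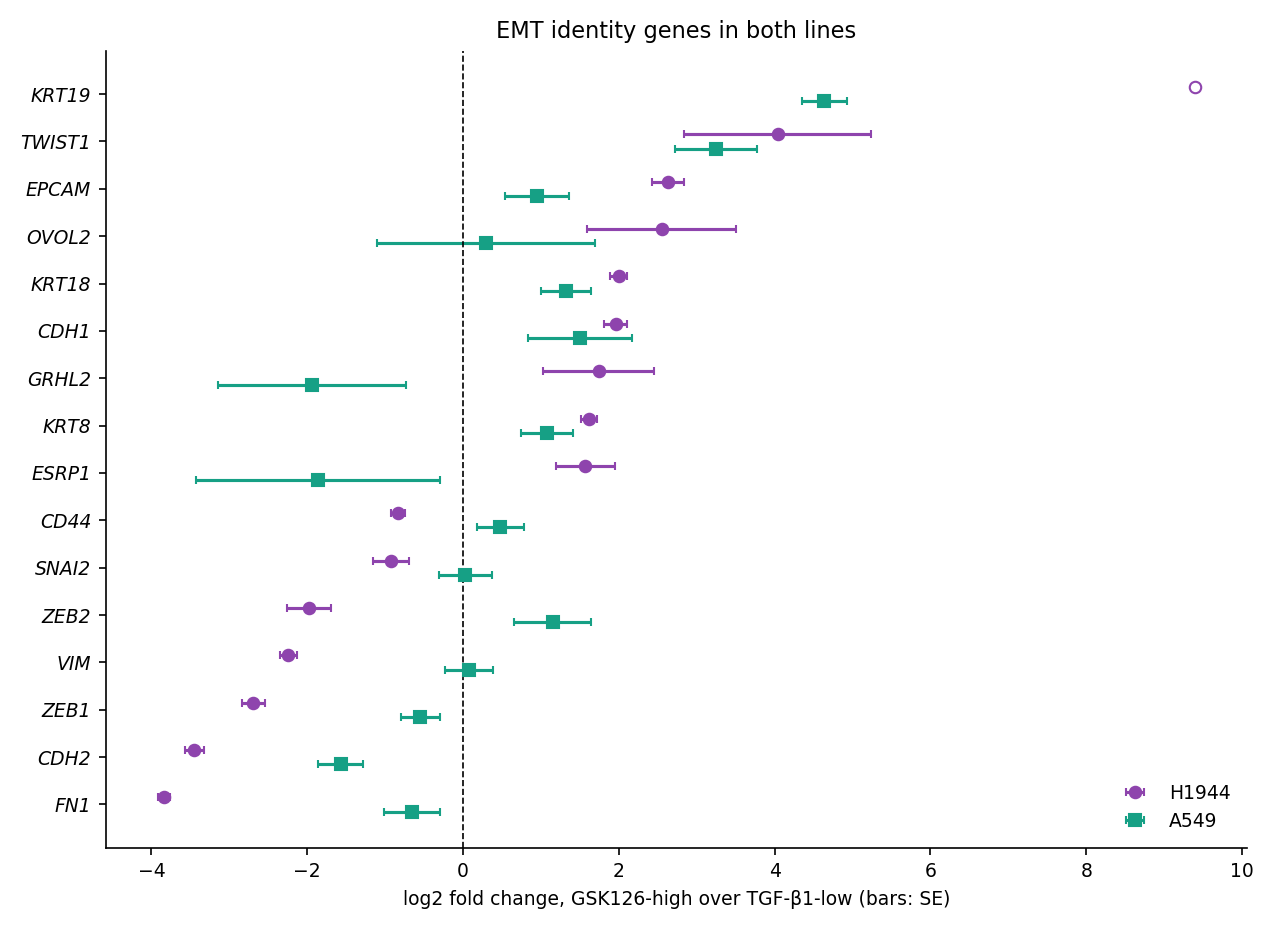
Log2 fold change of GSK126-high over TGF-β1-low with its SE for the 16 EMT identity genes in H1944 (circles) and A549 (squares). The open circle of KRT19 has no bar because TGF-β1-low libraries of H1944 had 0 counts; FN1 is at -3.84 in H1944 and -0.66 in A549.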

How the data were processed

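RNA of 28 libraries of reporter-carrying H1944 and A549 cells was sequenced after library preparation that kept strand and suited small amounts of RNA, per the labels' protocols. The submitters' processing notes name bcl2fastq 2.20.0, STAR 2.6.0c, HTSeq 0.12.3 and the build GRCh38. The authors deposited raw counts per gene in 60487 rows (60483 Ensembl ids and 4 reporter sequences, of which the 3 other than mVenus reached at most 1 count). Trimming, duplicates, strand setting and annotation are not given in the sources used here. Biotypes and coordinates came from GENCODE 29, which held 56753 of the ids. Symbols came from a separate list of gene names, or from GENCODE 29 where that list had none.

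Counts were fitted per line in edgeR 4.0.16 (R 4.3.3, limma 3.58.1) with TMM factors, filterByExpr and the quasi-likelihood test, over all groups of the line. That gave 13621 genes tested in H1944 (residual degrees of freedom 10, biological coefficient of variation 0.0978) and 19842 in A549 (8 and 0.358). The difference between the lines was fitted over all 28 libraries (17918 genes). P-values were adjusted by Benjamini-Hochberg over all genes tested, with a threshold of 0.05. The fit was tested on simulated data. Floors are 3 counts over a group, and counting intervals are exact at 95%.

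The members and the 39 lists (1184 of 1186 entries matched) were chosen with earlier results of these data known. Genes named by rule were the 16 EMT identity genes, the 12 highest and 12 lowest called coding genes of at least 2 CPM with groups that do not overlap, the 4 called members of smallest adjusted p per list, the 6 highest and 6 lowest like-level genes against naive cells, and 4 long non-coding RNAs each way. A few genes that the rule names are not reported here. Genes past this rule are said to be named after their values were seen.

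The letters A, B and C pair no samples by the labels. Alternatives were RLE size factors, no filter or 1 CPM, a replicate block, a fit of all 28 libraries or of the compared groups alone, DESeq2 1.42.0, limma-voom, other gates and leaving out each library. Promoter windows are from RefSeq (GRCh38.p14).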

Additional observations from a re-analysis of the deposited data

Results flagged for a closer look

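For 8 of the 16 EMT identity genes, the log2 fold change of GSK126-high over TGF-β1-low differed between H1944 and A549 by the test of that difference (edgeR interaction, Benjamini-Hochberg over 17918 genes; 8.76% of all genes passed). The A549 groups had 2 libraries each and were less close in mVenus than those of H1944. They also differed in depth and in olfactory receptor CPM. The part of these gaps in the differences between the lines was not tested. Differences are H1944 minus A549. Within A549 alone, only CDH2 (adjusted p = 0.00219) and KRT19 (adjusted p = 1.75e-07) of these genes passed the edgeR test between the groups.

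FN1 differed by -3.12 ± 0.32 (adjusted p = 1.18e-07). In A549 it had 617 and 1118 normalised CPM in GSK126-high and 1476 and 1246 in TGF-β1-low libraries. VIM differed by -2.26 ± 0.28 (adjusted p = 2.64e-06), with 1894 and 2057 normalised CPM in GSK126-high and 1875 and 1849 in TGF-β1-low libraries of A549, where vimentin RNA was thus close in both groups. CDH2 differed by -1.82 ± 0.29 (adjusted p = 6.90e-05). Its A549 levels, 147 and 141 in GSK126-high and 410 and 441 in TGF-β1-low libraries, lay in the direction seen in H1944.

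The repressor ZEB1 differed by -2.05 ± 0.26 (adjusted p = 2.34e-06), with 111 and 81.2 normalised CPM in GSK126-high and 138 and 142 in TGF-β1-low libraries of A549. ZEB2 differed by -3.05 ± 0.61 (adjusted p = 0.0012). In A549 it had 33.2 and 29.3 normalised CPM in GSK126-high and 13.6 and 14.3 in TGF-β1-low libraries, the opposite order to H1944. CD44 differed by -1.24 ± 0.25 (adjusted p = 0.00128), again with GSK126-high above in A549, at 777 and 728 against 551 and 523 in TGF-β1-low libraries. Neither order was called within A549 by the edgeR test. The log2 fold change there was 1.15 ± 0.49 for ZEB2 (adjusted p = 0.162) and 0.48 ± 0.30 for CD44 (adjusted p = 0.329).

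EPCAM differed by 1.74 ± 0.43 (adjusted p = 0.00783), with 11.1 and 6.69 normalised CPM in GSK126-high and 3.13 and 5.94 in TGF-β1-low libraries of A549. KRT19 differed by 5.06 (adjusted p = 0.0181). This value has no error and is no bound, because TGF-β1-low libraries of H1944 had 0 counts. In A549 KRT19 had 505 and 715 normalised CPM in GSK126-high and 25.5 and 23.0 in TGF-β1-low libraries. The other 8 genes did not pass the test of the difference, which does not show them to be alike. No group held 4 libraries, so no library was checked as an outlier within its group.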

How the results depend on the processing

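Under the 14 to 16 alternatives run for each H1944 count of called genes, all but one value stayed within 1.5 times its value. The 7144 genes called between GSK126-high and TGF-β1-low cells ran from 5352 (fit of all 28 libraries) to 7342 (both high gates), with 6363 without a filter, where 60.7% were higher against 50.1%. DESeq2 called 6700. Leaving out single libraries gave 6345 to 7042. For GSK126-high against naive cells the fit of all 28 libraries called 3286 in place of 5327; single libraries left out gave 3996 to 5272. The A549 count of 1873 was 1187 with a filter at 1 CPM, 3034 in DESeq2, and 524 to 1265 with single libraries left out. Of like-level genes there were 7042 at a limit of 2-fold. Between the low gates, GRHL2 (-0.65) and KRT7 (-0.07) changed sign.

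With the letter as a replicate block the H1944 count was 7138 and the A549 count 1029. Same-letter libraries of GSK126-high and TGF-β1-low correlated in their deviations at 0.0958, 0.0801 and -0.0229; A and B correlated best with their own letter and C did not, so the letters do not pair the 2 groups compared here by the limit of 0.1 in every pair. Between the 2 gates of GSK126, GSK126-high and GSK126-low, same-letter libraries did correlate, at 0.198, 0.315 and 0.242, and different letters at -0.0286 to -0.238.

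Of 188 named genes, all kept their direction and call with RLE size factors, the replicate block and limma-voom. The fit of all 28 libraries lost 9 calls and leaving out 1 library at most 4, among CSF1R, CHGB, PECAM1, EZH2, OVOL2 and GRHL2. The causes of the moved counts were not tested. Depth of 1660148 to 4550040 counts in the compared libraries limits what can be said of genes with few reads.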

Other observations

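Some long non-coding RNAs had few or no reads in one of the groups. BCAR3-AS1 had 116 counts in GSK126-high against 4 in TGF-β1-low libraries (log2 fold change 4.28 ± 0.72, edgeR). ENSG00000276980 had 150 counts against 2, a ratio of 52.4 with a counting interval from 14.3 to 437. It is annotated as sense intronic at chr19:6716386-6717742 (GRCh38), inside C3 (chr19:6677704-6730562), so its reads cannot be told apart from intron reads of C3, which had a log2 fold change of 4.97. In the other direction FLJ16779 had 3.56, 2.91 and 3.53 normalised CPM in GSK126-high, 146, 121 and 162 in TGF-β1-low and 0 to 0.689 in naive libraries (-5.41 ± 0.27, adjusted p = 2.37e-21). LINC01583 had 4 counts against 194 (-6.00 ± 0.77), LINC02725 had 3 against 140, and ENSG00000250697 had 0 against 107, at least 51.0-fold lower. Reads of antisense genes and their partners may not be told apart, since the strand setting of the counting is not given in the sources used here.

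Of 38 receptor tyrosine kinases and ligands, 11 were higher and 17 lower in GSK126-high than in TGF-β1-low cells (median log2 fold change -0.04). ERBB3, a partner of other ERBB receptors, was higher (3.98 ± 0.24, adjusted p = 3.18e-18), while the growth factor FGF2 (-2.56 ± 0.11) and the ephrin receptor EPHB2 (-2.37 ± 0.14) were lower. Of 10 S100 genes, 6 were higher and 3 lower (median 1.26), with S100A9 at 5.46 ± 0.26 and S100P at 3.60 ± 0.31. Of 23 immediate early genes, 10 were higher and 8 lower (median 0.14). Of 15 mitochondrially encoded genes, 5 were higher and 2 lower (median -0.02). The share of counts in all genes whose symbol begins with MT- was 5.64% ± 0.0635 in GSK126-high and 4.99% ± 0.275 in TGF-β1-low libraries. It was 6.95% ± 0.418 in naive libraries (SD, n = 3 each).

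Markers of other cell types are given as sums. Leukocyte markers summed to 5.81 to 28.7 CPM in GSK126-high, 11.8 to 18.1 in TGF-β1-low and 3.4 to 6.43 in naive libraries. Endothelial markers summed to 37.5 to 76.4 CPM in GSK126-high, 27.2 to 45.0 in TGF-β1-low and 48.8 to 56.2 in naive libraries, and nerve cell markers to 40.7 to 55.7 in GSK126-high, 49.9 to 56.2 in TGF-β1-low and 21.3 to 23.8 in naive libraries. The top of each treated range was GSK126-high C or TGF-β1-low B, which stood apart in olfactory receptor CPM. Leukocyte sums were 7.33 and 5.81 in GSK126-high A and B, and 11.8 and 12.4 in TGF-β1-low A and C. The part of background in these sums was not tested. Of the tested members, 2 endothelial markers were higher and 1 lower in GSK126-high than in TGF-β1-low cells, the 1 leukocyte marker, CSF1R, was lower (41 counts in all 6 libraries; not called without GSK126-high A, adjusted p = 0.059), and of 6 nerve cell markers 1 was higher and 3 lower. At 0 in GSK126-high libraries were PLVAP, TYROBP and NKG7, and in TGF-β1-low libraries CD3D. The higher call of PECAM1 was lost without GSK126-high C, TGF-β1-low A or TGF-β1-low C (adjusted p 0.0758 to 0.2), and the lower call of CHGB was lost with any one library left out other than GSK126-high C (adjusted p 0.0711 to 0.186).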
